A study of Mus musculus with 8 samples.

Results

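The ionotropic and metabotropic receptors for GABA, glycine and glutamate were followed in hypothalamus RNA of high and low gainers. They were chosen by gene symbol from the array's annotation, as the subunits of the GABA-A, GABA-B, glycine, AMPA, kainate, NMDA and metabotropic glutamate receptors. The rule found 37 probes for 33 genes, of 14411 probes naming 1 of 13840 genes and 33012 probes in all. High gainers and low gainers were male C57BL/6J mice, an inbred strain, that gained much or little weight. Both ate the same diets, first high-fat food (6 weeks), then low-fat food (2 weeks), then high-fat food again (6 weeks). In the study's protocol of these phases, the low-fat food was restricted below what each mouse had eaten earlier. Hypothalamus RNA of 20 mice was pooled per group, and each pool was hybridised to 4 arrays, so that the arrays of a pool are technical replicates and each p-value below compares 2 pools of RNA against the spread between arrays. Nothing here measures the spread between mice.

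GABA and glycine open chloride channels made of several related subunits and mostly quiet the neuron that carries them, while glutamate opens the cation channels of the AMPA, kainate and NMDA families. GABA-B and metabotropic glutamate receptors act more slowly, through G proteins. In the hypothalamus most fast transmission onto the neurons that govern feeding uses these transmitters.

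Low gainer array 2 is shown apart. Over 5375 probes its log2 intensities correlated with those of the other 7 arrays at an r of 0.227 to 0.241, where the other arrays correlated with each other at 0.949 to 0.990. All comparisons below set the 4 high gainer arrays against low gainer arrays 1, 3 and 4. Of the 15 hypothalamic markers with a probe, 10 had a value on each of these 7 arrays, among them Oxt, Avp, Hcrt, Sst and Trh, while Ghrh, Lhx1 and Nkx2-1 had none on any of the 7. Of the 10 tested, 1 had a log2 difference above 0 and 9 below, with a median of -0.19. None was called by limma, and at an unadjusted p of 0.05 in that limma fit 2 were lower in high gainers (Hcrt at -0.50 and Npy at -0.58) and 0 higher. Of all probes, 3.41% were lower and 3.07% higher at that p. Pomc, not tested for its empty cells, had 0.735 to 1.48 on the 4 high gainer arrays and 0.208 on low gainer array 4 alone. Otp had a value on 2 high gainer arrays and on none of low gainer arrays 1, 3 and 4. The 15 summed to 39.6 to 47.6 in high gainers and 43.3 to 53.8 in low gainers, so the sums overlapped. The part of these differences in the receptor values was not tested.

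Part of the receptor genes gave a signal on every array. Values are normalized intensities, not logged, and some cells of the table are empty. Of the 33 receptor genes, 17 (51.5%) had a value on all 7 arrays, 12 on some and 4 (Gabre, Gabrp, Glra3 and Grm6) on none. Of all probes naming 1 gene, 43.9% had a value on all 7. The high gainer arrays held values for 22 to 25 receptor genes, and low gainer arrays 1, 3 and 4 for 23, 21 and 24. Low gainer array 3, with the fewest, also had the fewest probes with a value among all probes, 13657. Gabrd, Gabbr1 and Grin2a lacked a value there and on no other of the 7 arrays. No receptor gene had a value on every array of one pool and on at most 1 array of the other.

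Detection differed between classes. All 3 AMPA genes with a probe, Gria1, Gria2 and Gria3, had a value on all 7 arrays, as did 3 of 4 kainate genes (all but Grik4), 6 of 13 GABA-A genes, 2 of 5 glycine genes and 2 of 5 NMDA genes. Gabra6, the alpha subunit of cerebellar granule cells, had a value on 1 of the 7 arrays, 0.103 on low gainer array 1. Gabrr1, a rho subunit best known from the retina, had 1 value on the 7 arrays, 0.125 on high gainer array 4, but its relative Gabrr2 had values on all 7, between 0.168 and 0.399. Of the theta subunit Gabrq, 1 array of each pool had a value. Grin2c was at 0.395 and 0.292 on high gainer arrays 1 and 2 and at 0.177 on low gainer array 4. Grin3b was at 0.166 on high gainer array 2, and at 0.207 and 0.203 on low gainer arrays 1 and 3. Glra2 had values from 0.0932 to 0.138 on 3 high gainer arrays and 0.146 on low gainer array 4.

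**Figure D1:**
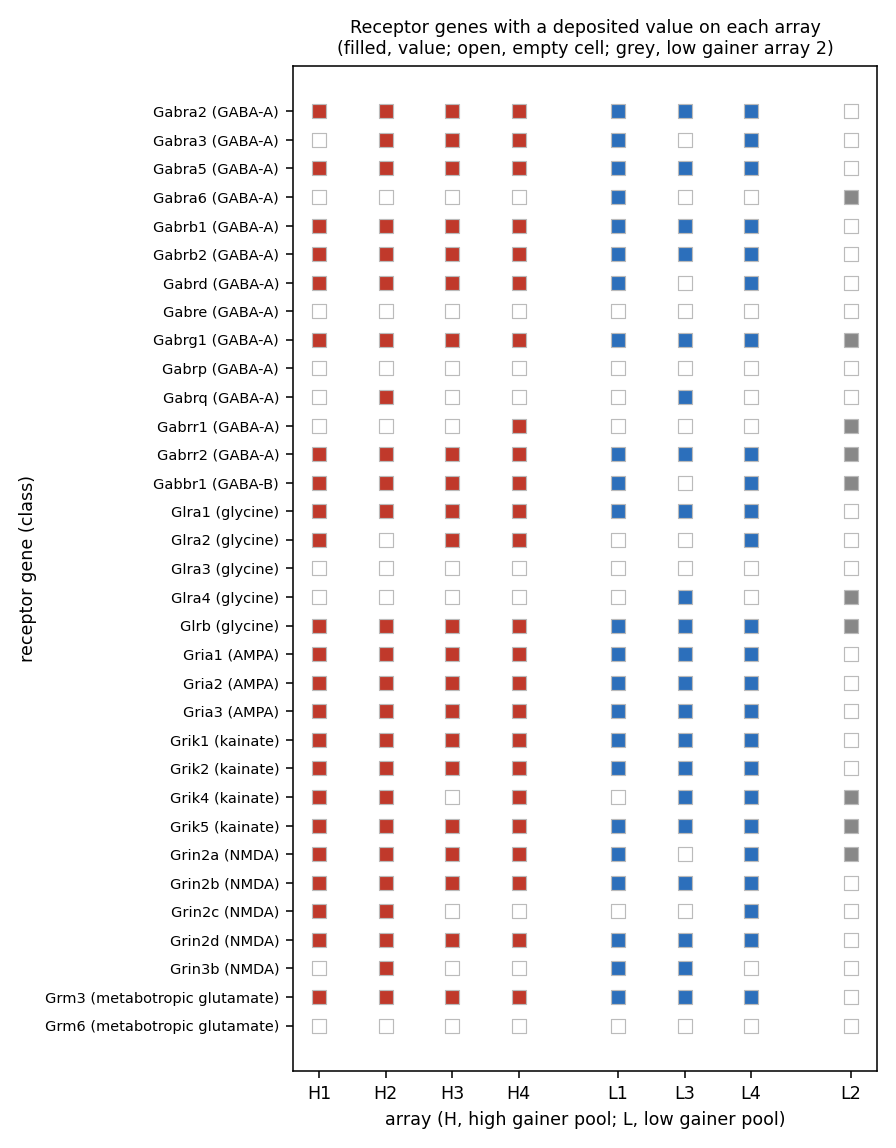
Receptor genes (rows, with their class) against arrays (columns), filled where there is a value and open where the cell is empty, with high gainer arrays in red, low gainer arrays 1, 3 and 4 in blue and low gainer array 2 in grey. Of 33 genes, 17 are filled on all 7 coloured columns, and 10 have a value on low gainer array 2.

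No receptor gene passed the test between the pools. Of the 17 genes with a value on all 7 arrays, 0 were higher and 0 lower in high gainers at an adjusted p of 0.05 by limma over 11169 probes, with adjusted p between 0.750 and 0.996. Of all probes, 0.0269% were called, all of them higher. The log2 differences, high minus low gainers after quantile normalization, ran from -0.56 for Grin2d to 0.90 for Grik5, with 8 genes above 0 and 9 below. Of all probes, 49.6% lay above 0. The median of the receptor genes was -0.06 and that of all probes tested 0.00. Without low gainer array 4 the receptor median was 0.13, and without high gainer array 1 it was 0.03. At an unadjusted p of 0.05, 2 receptor genes were higher, Grik5 and Grm3, and 0 were lower, where 6.48% of all probes passed, 3.07% higher and 3.41% lower. After normalization all high gainer arrays lay above low gainer arrays 1, 3 and 4 for 2 genes (2.07% of all probes) and below them for 1 (2.70%).

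**Figure D2:**
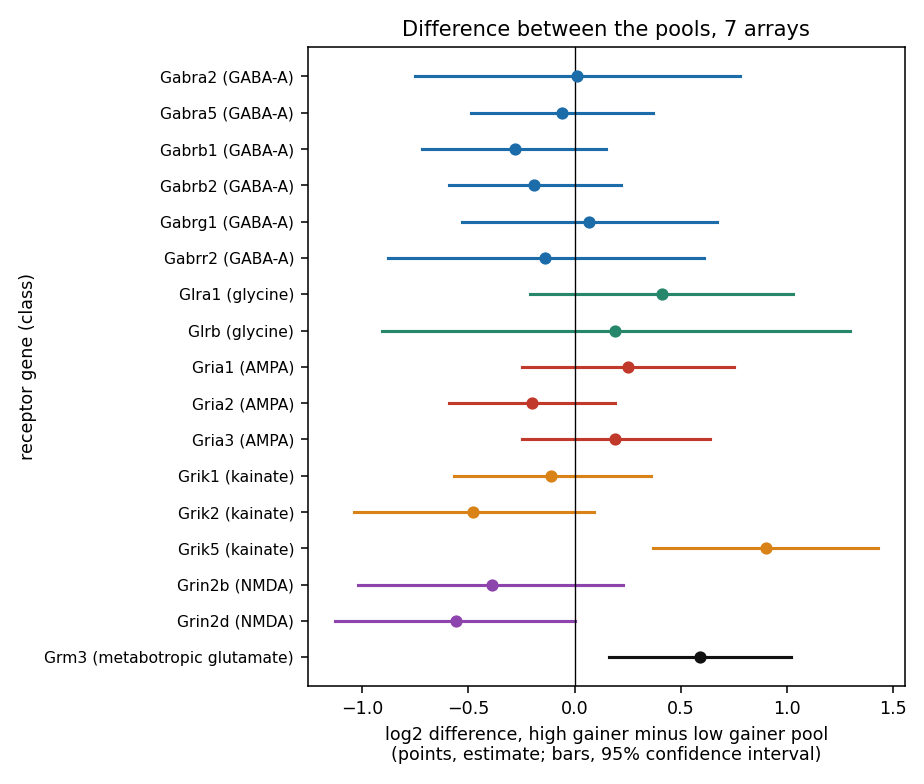
High minus low gainer difference on the log2 scale (x axis) for the 17 receptor genes tested (y axis, coloured by class), with points for the estimate and bars for the 95% confidence interval. Only the intervals of Grik5 (0.37 to 1.43) and Grm3 (0.16 to 1.02) lie wholly on one side of 0.

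Grik5 and Grm3 stood highest, and neither passed the adjustment. Grik5 encodes a kainate receptor subunit that forms channels only together with another kainate subunit. Its intensity was 1.31, 1.64, 1.20 and 1.40 on high gainer arrays 1 to 4, against 0.699, 0.468 and 1.15 on low gainer arrays 1, 3 and 4. Every high gainer array lay above every low gainer array, the closest being high gainer array 3 and low gainer array 4. The means were 1.39 ± 0.189 (SD, n = 4 arrays) in high gainers and 0.771 ± 0.345 (SD, n = 3 arrays) in low gainers. The fold of the normalized log2 means was 1.86, with an adjusted p of 0.750 by limma (unadjusted p of 0.00266 in the same limma fit). Grik5 was the only receptor gene, 1 of 17, within the study's limits of p 0.01 and 1.5-fold, which 1.03% of all probes met by limma. With the methods' t-test its unadjusted p was 0.0191, outside that limit.

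Grm3 encodes a metabotropic glutamate receptor that lowers cyclic AMP and is found on neurons and glia. It measured 7.15, 6.81, 9.15 and 6.95 on high gainer arrays 1 to 4, against 6.80, 4.45 and 4.07 on low gainer arrays 1, 3 and 4. The pools touched, since low gainer array 1 lay just under high gainer array 2. The fold was 1.51, the log2 interval 0.16 to 1.02 and the adjusted p 0.750 by limma. Median centring and cyclic loess gave log2 differences of 0.57 and 0.59 and let the pools overlap. Without low gainer array 1 the difference was 0.82 and Grm3 was called by limma, at an adjusted p of 0.0444, in a fit that called 171 of 11247 probes. The limma fit without any other single array called no receptor gene.

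Summed markers of some other cell types and regions did not overlap between the pools, in part through 1 gene. The 6 oligodendrocyte markers with a probe (of 9 listed) summed to 49.1 to 77.9 in high gainers, against 13.8 to 44.7 in low gainers, mostly Mbp, and all 6 had differences above 0 with none called by limma. Mbp and Mag did not overlap and the other 4 did, where 2.07% of all probes had every high gainer array above. Without Mbp the sums overlapped, at 6.95 to 11.2 in high gainers and 4.14 to 11.3 in low gainers. The 5 striatal markers with a probe (of 7) summed to 103 to 109 in high gainers, against 77.4 to 88.4 in low gainers, with all 5 above 0 and none called by limma. Most of that sum was Penk, at 0.48 (unadjusted p of 0.00497 in the limma fit). Without Penk the sums overlapped, at 22.8 to 29.1 in high gainers and 20.9 to 24.7 in low gainers. Penk, Drd2 and Rgs9 did not overlap and the other 2 did, where 2.07% of all probes had every high gainer array above. The 7 anterior pituitary markers with a probe (of 10) summed to 40.1 to 46.5 in high gainers and 25.7 to 35.0 in low gainers. Most of that sum was Chgb, whose pools overlapped. Without it the sums were 9.02 to 10.9 in high gainers and 1.20 to 1.38 in low gainers. Gh, Prl and Cga among them were the 3 probes called, at folds of 11.2, 6.35 and 7.42. The 3 red cell genes with a probe (of 6) summed to 8.94 to 14.8 in high gainers and 18.4 to 37.2 in low gainers. Of the 3, Hba-a1 and Hbq1a did not overlap and Alas2 did, where 2.70% of all probes had every high gainer array below. Without Hba-a1 the sums still did not overlap, at 0.836 to 1.17 in high gainers and 1.27 to 1.46 in low gainers. The 10 neuronal genes with a probe (of 11) summed to 123 to 155 in high gainers and 140 to 148 in low gainers. The part of these cells in the Grik5 and Grm3 values was not tested, and in a dissected tissue fewer cells of a type and less RNA per cell cannot be told apart.

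The promoters of the genes that stood highest and lowest are shown to place them in the genome and to give their sequence. The letters are the 250 bases before the start site in the RefSeq table of build GRCm38.p6, on the gene's own strand, with each match to the GC box GGGCGG on either strand in capitals. Grik5 and Grin2d have annotated bases further upstream, so these are not their only starts. The Grik5 stretch is chr7:25072370-25072619, that of Grm3 chr5:9725353-9725602 and that of Grin2d chr7:45866682-45866931, all on the minus strand.
Grik5: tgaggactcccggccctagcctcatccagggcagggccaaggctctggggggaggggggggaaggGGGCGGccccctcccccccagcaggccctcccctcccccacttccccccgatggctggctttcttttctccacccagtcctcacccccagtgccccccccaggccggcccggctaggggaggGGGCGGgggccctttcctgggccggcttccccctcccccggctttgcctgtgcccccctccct
Grm3: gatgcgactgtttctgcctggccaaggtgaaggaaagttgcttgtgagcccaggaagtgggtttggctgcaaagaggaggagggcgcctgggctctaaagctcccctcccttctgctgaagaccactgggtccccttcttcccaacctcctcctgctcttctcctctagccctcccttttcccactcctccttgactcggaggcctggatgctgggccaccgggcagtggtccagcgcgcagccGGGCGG
Grin2d: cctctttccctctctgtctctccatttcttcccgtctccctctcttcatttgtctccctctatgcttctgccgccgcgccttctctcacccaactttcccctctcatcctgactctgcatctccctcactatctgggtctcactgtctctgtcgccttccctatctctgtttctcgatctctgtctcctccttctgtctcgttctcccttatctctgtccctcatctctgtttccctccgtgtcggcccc
The Grik5 stretch held 2 GC boxes and 75.2% G and C, that of Grm3 1 box and 62.4%, and that of Grin2d no box and 54.4%. A GC box was found in 13 of 30 promoters of 26 receptor genes, and in 32.7% of 32851 promoters of the same length.

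Of the other kainate genes, Grik2 lay on the opposite side from Grik5. Grik2, a subunit that can form a channel by itself, measured 0.341, 0.505, 0.492 and 0.390 on high gainer arrays 1 to 4, against 0.437, 0.567 and 0.753 on low gainer arrays 1, 3 and 4. High gainer arrays 2 and 3 lay above low gainer array 1, so the pools overlapped. The log2 difference was -0.48, with an interval from -1.04 to 0.09. Grik1 had 1.23, 1.04, 0.948 and 0.960 in high gainers, against 0.879, 1.13 and 1.34 in low gainers, with a difference of -0.11 (interval -0.57 to 0.36). Grik4 could be compared only where some cells may be empty, and in that fit its log2 difference was -0.12, with an interval from -1.08 to 0.84.

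Both NMDA genes that were tested had lower means in high gainers, and neither passed the adjustment. Grin2d, a subunit known from the diencephalon and from interneurons, measured 0.362, 0.348, 0.329 and 0.241 on high gainer arrays 1 to 4, against 0.450, 0.345 and 0.557 on low gainer arrays 1, 3 and 4. As deposited, high gainer arrays 1 and 2 lay just above low gainer array 3, and after quantile normalization all high gainer arrays lay below. The fold was 0.677, with a log2 difference of -0.56, an interval from -1.13 to 0.00 and an adjusted p of 0.756 by limma. Its unadjusted p was 0.0516 in that limma fit and 0.0282 with the methods' t-test, where 4.27% of all probes passed 0.05. By limma it was 0.0479 with a pseudocount and 0.0183 without the trend, but 0.0901 with median centring and 0.0694 with cyclic loess. Grin2b, the partner subunit of much of the developing and adult forebrain, had 0.212, 0.307, 0.261 and 0.304 in high gainers, against 0.394, 0.370 and 0.238 in low gainers. Low gainer array 4 lay below 3 of the high gainer arrays, and the log2 difference was -0.39 (interval -1.02 to 0.23). Grin2a had no value on low gainer array 3, and over the other arrays its difference was 0.36 (interval -0.33 to 1.06) in the fit that allows empty cells. The other 2 Grin2a probes had a value on no array.

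The pools overlapped for each of the 3 AMPA genes. Gria2, the subunit that sets the calcium permeability of AMPA receptors, had 11.7, 7.24, 10.3 and 10.5 on high gainer arrays 1 to 4, against 10.4, 11.1 and 12.6 on low gainer arrays 1, 3 and 4. High gainer array 2 was the lowest of the 7, and the log2 difference was -0.20 (interval -0.59 to 0.19). Gria1 had 9.52, 7.89, 5.49 and 5.35 in high gainers, against 5.63, 4.59 and 7.48 in low gainers, with a difference of 0.25 (interval -0.25 to 0.75). A second Gria1 probe had a difference of -0.03 (interval -0.50 to 0.44), and high gainer array 1 and low gainer array 4 led their pools on both probes. Gria3 had 2.25, 2.26, 1.88 and 1.94 in high gainers, against 2.25, 1.24 and 2.06 in low gainers, with a difference of 0.19 (interval -0.25 to 0.64).

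**Figure D3:**
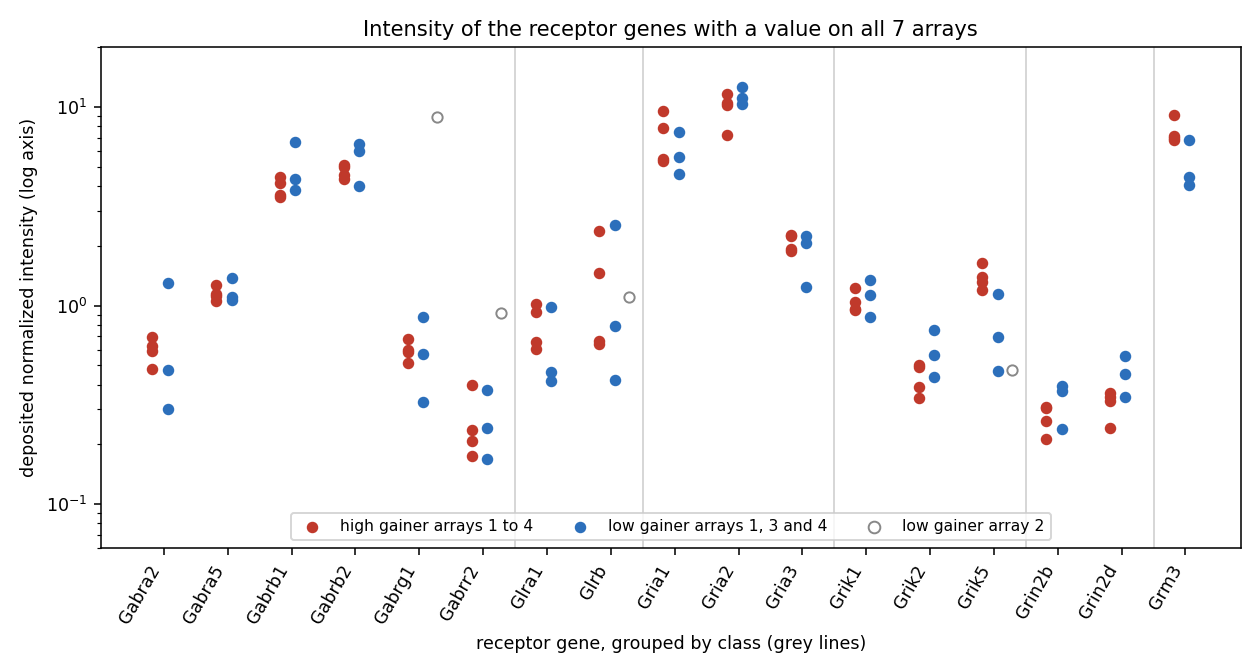
Normalized intensity, log axis, of the 17 receptor genes with a value on all 7 arrays, grouped by class, with high gainer arrays in red, low gainer arrays 1, 3 and 4 in blue and low gainer array 2 as an open circle. Grik5 is the clearest separation, at 1.20 to 1.64 in high gainers and 0.468 to 1.15 in low gainers, and brightness between genes also depends on the probe.

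The 6 GABA-A genes that were tested had log2 differences between -0.28 and 0.07. Gabrb1, a beta subunit, measured 3.59, 3.54, 4.47 and 4.15 on high gainer arrays 1 to 4, against 3.82, 6.66 and 4.35 on low gainer arrays 1, 3 and 4. Low gainer array 3 alone stood above the rest, and the difference of -0.28 (interval -0.72 to 0.15) became -0.05 without it. Gabrb2, the beta subunit of many adult GABA-A receptors, had 4.57, 4.34, 5.0 and 5.11 in high gainers, against 6.55, 4.02 and 6.03 in low gainers, with a difference of -0.19 (interval -0.59 to 0.22). A second Gabrb2 probe lay on the other side of 0, at 0.46 (interval -0.23 to 1.14).

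The alpha, gamma and rho subunits overlapped between the pools. Gabra5, an alpha subunit of mainly extrasynaptic receptors, varied least within pools of all 17 genes, with a within-pool SD of 0.15 on the log2 scale. It ran from 1.06 to 1.27 in high gainers, against 1.07 to 1.37 in low gainers, with a difference of -0.06 (interval -0.49 to 0.37). Gabra2, an alpha subunit at inhibitory synapses, was 0.479 to 0.698 in high gainers, against 0.474, 0.300 and 1.30 in low gainers. Its low gainer arrays spanned more than the high gainer arrays on both sides, and the difference was 0.01 (interval -0.75 to 0.78). Gabrg1, a gamma subunit, had 0.587, 0.513, 0.677 and 0.598 in high gainers, against 0.573, 0.327 and 0.878 in low gainers, with a difference of 0.07 (interval -0.53 to 0.67). Gabrg1, Gabra2 and Gabrb1 lie on chromosome 5. On low gainer array 3 the first 2 had their lowest value of the 7, where Gabrb1 had its highest. Gabrr2 had a difference of -0.14 (interval -0.88 to 0.61).

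Gabra3, an alpha subunit, had 0.383, 0.385 and 0.216 on high gainer arrays 2, 3 and 4, against 0.0921 and 0.336 on low gainer arrays 1 and 4. In the fit that allows empty cells its log2 difference was 0.80, with an interval from -0.36 to 1.95. That of Gabrd, the delta subunit of tonic inhibition, was -0.17 (interval -0.83 to 0.50). That of Gabbr1, the subunit of the GABA-B receptor that binds GABA, was 0.24 (interval -0.67 to 1.16). The intervals span both directions, and the fit called 0 of 22 receptor genes by limma. At an unadjusted p of 0.05 it had 2 (Grik5 and Grm3), where 5.70% of all probes passed.

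**Figure D4:**
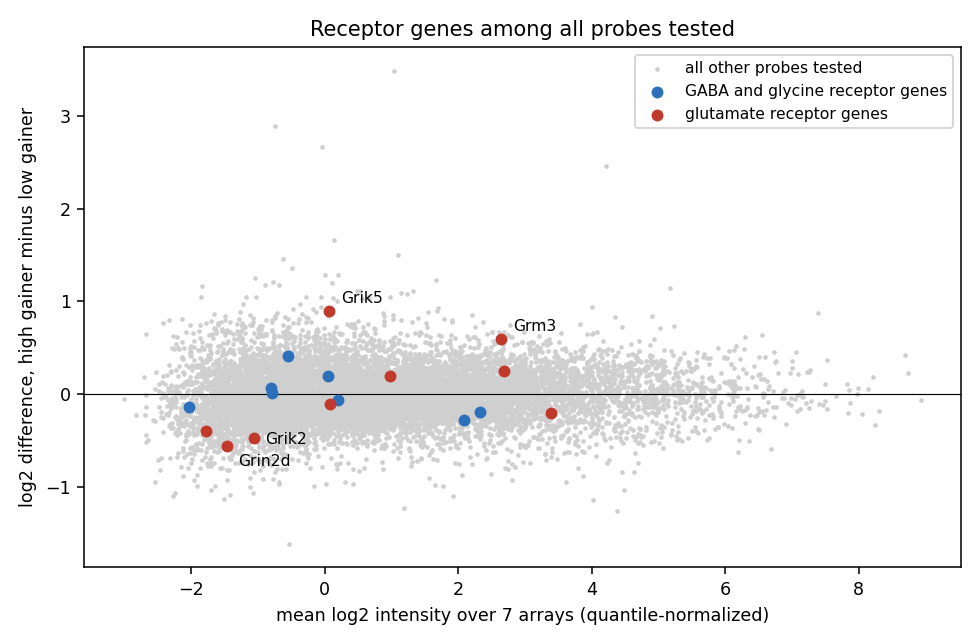
Log2 difference between the pools (y axis) against mean quantile-normalized log2 intensity over the 7 arrays (x axis) for 11169 probes in grey, with the GABA and glycine receptor genes in blue and the glutamate receptor genes in red. The receptor genes lie within the cloud of other probes, with Grik5 at 0.90 near its upper edge.

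A glycine receptor gene, Glrb, varied most between arrays of the same pool. Glrb, the beta subunit that anchors the receptor to gephyrin, had 1.46, 2.37, 0.666 and 0.640 on high gainer arrays 1 to 4, against 0.422, 0.789 and 2.54 on low gainer arrays 1, 3 and 4. High gainer arrays 1 and 2 and low gainer array 4 thus stood above the other arrays, whichever the pool. The within-pool SD was 1.06 on the log2 scale, the largest of the 17 receptor genes, whose median was 0.30 where that of all probes tested was 0.28. The difference was 0.19 (interval -0.91 to 1.30), and became -0.41 when low gainer array 1 was left out and 0.85 when array 4 was. Glra1, the alpha subunit of adult glycine receptors, had 0.656, 1.02, 0.605 and 0.929 in high gainers, against 0.462, 0.417 and 0.985 in low gainers. Low gainer array 4 again stood with the higher arrays, and the difference was 0.41 (interval -0.21 to 1.03). Gabbr1 had its higher values on the same arrays as Glrb, with 0.598, 0.764, 0.320 and 0.317 in high gainers, against 0.277 and 0.525 on low gainer arrays 1 and 4.

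On low gainer array 4, 7 of the 8 GABA and glycine receptor genes tested lay above the mean of their pool, by up to 1.33 for Glrb, and Gabrb1 lay below it, at -0.15. The median deviation from the pool mean over these 8 genes was 0.54 on low gainer array 4 (0.34 over the 6 GABA-A genes), and -0.30 and -0.22 on low gainer arrays 1 and 3. On the high gainer arrays it ran from -0.10 to 0.08. Over the 9 glutamate receptor genes it was 0.20 on low gainer array 4, and -0.04 and -0.15 on the other 2. Over all 11169 probes it was between -0.02 and 0.03 on each array. The oligodendrocyte markers deviated by 0.61 on low gainer array 4, by -0.64 on array 3 and by 0.19 on array 1. On low gainer array 4 the 2 thalamic markers tested deviated by 0.50, the astrocyte markers by 0.24 and the anterior pituitary markers by -0.42. The other marker lists lay between -0.23 and 0.07 on that array. The part of these cells in the receptor values was not tested.

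**Figure D5:**
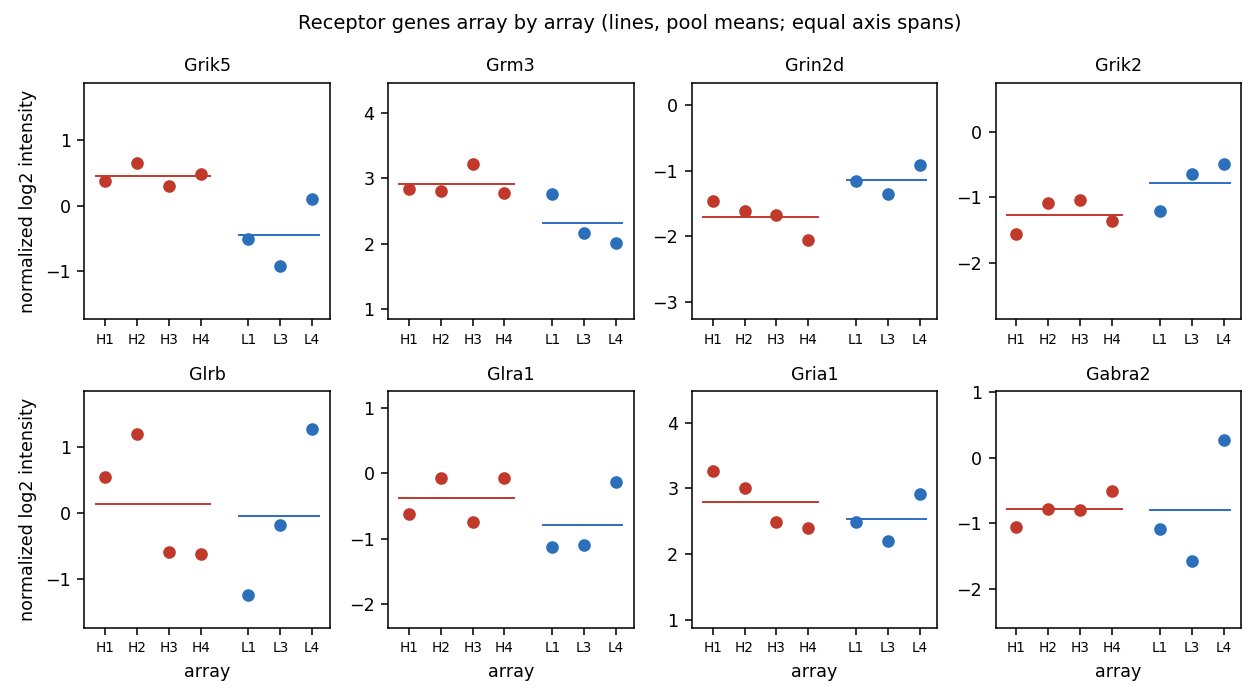
Quantile-normalized log2 intensity of 8 receptor genes on each array (x axis), with high gainer arrays in red, low gainer arrays 1, 3 and 4 in blue, lines at the pool means and axes of equal span. The pools separate for Grik5, Grm3 and Grin2d, while Glrb, Glra1 and Gabra2 spread within a pool and have low gainer array 4 at or near the top.

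Genes that make, move and anchor these transmitters and receptors did not pass either. Of 30 genes of GABA, glycine and glutamate synthesis, transport and breakdown, 13 were tested, 8 of them above 0, with a median log2 difference of 0.05. Gad1, which makes GABA, ran from 58.5 to 80.0 in high gainers, against 68.7 to 71.2 in low gainers, with a difference of 0.03 (interval -0.31 to 0.37). Gad2, the other GABA-making enzyme, had 8.16, 5.56, 2.71 and 2.84 in high gainers, against 3.62, 1.70 and 3.84 in low gainers, with a difference of 0.58 (interval -0.18 to 1.35). High gainer arrays 1 and 2 were again the higher ones of their pool. Slc32a1, the vesicular GABA and glycine transporter, had a difference of 0.27 (interval -0.10 to 0.65) and Slc17a6, a vesicular glutamate transporter, 0.24 (interval -0.61 to 1.08).

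Of 23 auxiliary subunit genes, 7 were tested, with a median of 0.01. Of 29 anchoring and trafficking genes, 13 were tested and 11 were above 0, with a median of 0.22. In these 3 lists 0 genes were called by limma, and at an unadjusted p of 0.05 the same fit had 1, 1 and 2 genes higher and 0, 1 and 0 lower. Of all probes, 3.07% were higher and 3.41% lower at that p, and 49.6% lay above 0. Dlg4, which encodes the scaffold PSD-95 of glutamate synapses, had 0.828, 1.02, 0.546 and 0.574 on high gainer arrays 1 to 4, against 0.422, 0.297 and 0.173 on low gainer arrays 1, 3 and 4. The pools did not overlap, where 2.07% of all probes had every high gainer array above. The difference was 1.26 (interval 0.57 to 1.94) with an adjusted p of 0.750 by limma. Dlg4 was called by limma once low gainer array 1 was left out, in a fit that called 171 of 11247 probes. It was alone in this among the partner genes over these fits. Gphn, the gephyrin scaffold of inhibitory synapses, had 1.39 to 1.71 in high gainers, against 1.09 to 1.62 in low gainers, with a difference of 0.23. Gabarap had a value on 1 array of each pool and Nsf on none.

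Low gainer array 2 gave values for 10 of the 33 receptor genes, and for 4 of the 17 that had a value on all 7 other arrays. Of the 10 values, 5 lay above all of the other arrays and 0 below all of them. Glra4 was at 22.1 on that array and had 1 other value, 0.276 on low gainer array 3. Gabrg1 was at 8.91 there and at no more than 0.878 elsewhere. Grik5 was at 0.475, next to its value on low gainer array 3. In the fit with all 8 arrays 4 receptor genes could be tested, none was called by limma, and Grik5 had a difference of 0.89 (interval 0.24 to 1.53). Whether the values of low gainer array 2 stand beside the right probes was not tested, so no conclusion on Grik5 is drawn from them.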

How the data were processed

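RNA of each pool was labelled with digoxigenin and hybridised to the 1-colour Applied Biosystems mouse genome survey array, read by chemiluminescence. The authors normalized the signals across arrays by a quantile method, and the table they deposited holds these intensities, not logged. Between 13657 and 16873 probes had a value on an array, and the methods call a feature detected by its signal-to-noise ratio and quality flag. Whether that criterion left the other cells empty is not given in the sources used here. The arrays did not share one distribution, so log2 intensities were, for probes measured on each of the 7 arrays compared, quantile-normalized again. Pools were compared with limma 3.58.1 in R 4.3.3 (lmFit and eBayes with a trend), with Benjamini-Hochberg adjustment over 11169 probes and a threshold of 0.05. Low gainer array 2 was left out of this fit. The members, the gene lists and the arrays to compare were chosen with earlier results of these data known. The platform annotation named the probes, and 37 of 37 receptor probes matched a RefSeq gene of GRCm38.p6. A further 17 receptor genes, without a probe naming 1 gene, were not analysed here. The probe with most values, then the brightest, stood for a gene.

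Every receptor gene with a value on all 7 arrays was named, with values on every array for the 12 of smallest p, the extremes of each class and Gabra3. Of the partner lists, Gad1, Gad2, Slc32a1, Slc17a6, Gphn, Gabarap, Nsf and Dlg4 were named whatever their values. Alternatives covered normalization, brightness filters, a pseudocount of 0.186, empty cells, the replicate number as a block, the prior, array weights, the methods' t-test and each array left out. Precision rests on how many arrays there are.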

Additional observations from a re-analysis of the deposited data

Results flagged for a closer look

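Within the high gainer pool, 2 of 17 receptor genes had an array far from the other 3 after quantile normalization on the log2 scale. Chance gives about 1 in 20 such groups. Grik1 was at 0.28 on high gainer array 1, and between -0.05 and -0.03 on the others (as deposited, 1.23 against 0.948 to 1.04). Grm3 was at 3.21 on high gainer array 3, and between 2.77 and 2.84 on the others (as deposited, 9.15 against 6.81 to 7.15). Without that array the log2 difference of Grm3 was 0.49, with an interval from 0.02 to 0.96.

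Low gainer array 2, outside the comparison, held 6 receptor probes above every other array. These were Gabra6 at 2.09, Gabrg1 at 8.91, Gabrr1 at 9.96, Gabrr2 at 0.919, Glra4 at 22.1 and the second probe of Gria1 at 71.1, against no more than 0.103, 0.878, 0.125, 0.399, 0.276 and 4.51 on the other 7 arrays. This array correlated with the others at an r of 0.227 to 0.241, and whether its values stand beside the right probes was not tested.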

How the results depend on the processing

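With each of 20 alternatives 0 receptor genes were called by limma or the methods' t-test, except that leaving out low gainer array 1 called Grm3. Leaving out each array in turn gave 0 to 1 called receptor genes, 2 to 4 at an unadjusted p of 0.05, 3 to 6 without overlap, a median of -0.14 to 0.13, 0 to 1 called partner genes and 17 to 20 genes with a value on all arrays left. The highest counts came without low gainer array 1 (called), 3 (unadjusted p) and 4 (no overlap, 5 without array 1). Without low gainer array 1, 17.1% of all probes passed an unadjusted p of 0.05 by limma and 26.3% did not overlap. Without array 3 the shares were 2.18% and 7.77%, and without array 4 they were 9.79% and 16.4%. The brightest 50% of probes kept 6 receptor genes, so fewer genes were tested. Of these, 1 passed an unadjusted p of 0.05 by limma (7.63% of all probes kept) and 1 did not overlap (4.78%). All 8 arrays gave 1 and 1 among 4 genes (0.912% and 2.72% of all probes tested), a median of -0.41, and 4 genes with a value on each. Of the 17 genes, 11 kept their direction in each fit. The exceptions had small differences. Gabra2 was -0.02 with the pseudocount, Gabrg1 was -1.0 and Glrb -0.05 with all 8 arrays. Leaving out arrays gave ranges of -0.38 to 0.54 for Gabra2, -0.14 to 0.00 for Gabra5, -0.24 to 0.34 for Gabrg1, -0.42 to 0.13 for Gabrr2, -0.41 to 0.85 for Glrb and -0.02 to 0.36 for Gria3. The cause was not tested.

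Same-numbered arrays of the 2 pools deviated from their pool means with a correlation of -0.20, 0.13 and -0.14 across probes, so the numbers were not taken to pair the arrays. Other pairs ranged from -0.52 (high gainer array 3 with low gainer array 4) to 0.45 (3 with 1), with 0.39 for 2 with 4 and 0.26 for 1 with 4, and the fit held no term for this. With the replicate number as a block 9 of 11169 probes were called, against 3 without it, and 0 receptor genes, with Gabra5 at 0.00, Glrb at -0.17 and the other differences in the same direction. The block gave a median of -0.07, 2 genes at an unadjusted p of 0.05 (6.46% of all probes), 3 without overlap (4.77%) and 0 called partner genes.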
